A study of Mus musculus with 8 samples.

Results

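The data describe 10 genes of interleukin-6 (IL-6) family signalling in mouse malignant peripheral nerve sheath tumor (MPNST) cells. They are the receptor genes *Osmr*, *Lifr*, *Il6ra*, *Il11ra1* and *Il6st*, the ligand genes *Il6*, *Lif* and *Il11*, the transcription factor gene *Stat3* and its feedback inhibitor *Socs3*. The genes were taken by symbol from a table of 50600 genes. All 10 were among the 14497 genes that reached 10 counts in 2 or more of the 8 libraries. The set was chosen by its leading gene: *Osmr* had been seen in these counts to respond to treatment by a different amount in each cell line (an interaction of line and treatment). The interaction values of all 10 genes, and all values of *Osmr*, are therefore given as a description without a test.

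RNA came from NF1-MET cells, a line from an MPNST with *Met* amplification that carried Nf1 fl/ko alleles, the lox-stop-loxMET tg/+ transgene and Plp-creERT tg/+, and from NF1-MET;sgP53 cells, made from it by lentiviral delivery of Cas9 and a guide against *Trp53*. The Plp promoter drives the Cre of this model in the Schwann cell lineage. The labels give *Trp53* as WT in the first line and as Trp53 KO in the second, and the *Nf1* and MET alleles are common to both. Each line received vehicle (DMSO) or 100 nM of capmatinib, an inhibitor of the MET receptor kinase, for 24 h, and each of the 4 groups had 2 replicate libraries. Each genotype was 1 line, and any further difference between the 2 lines cannot be told apart from *Trp53* loss. The study also made an empty-vector line, and the sources leave unstated if it gave the NF1-MET libraries.

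IL-6 family cytokines signal through gp130, the protein of *Il6st*. IL-6 and IL-11 first bind their own receptor subunits, from *Il6ra* and *Il11ra1*, and these complexes then engage gp130, whereas leukemia inhibitory factor (LIF) binds LIFR with gp130 and oncostatin M binds OSMR with gp130. The receptors activate JAK kinases, which phosphorylate STAT3, and STAT3 induces *Socs3*, whose protein binds gp130 and dampens the signal. Schwann cells make IL-6 and LIF after nerve injury. Counts of transcripts show neither phosphorylated STAT3 nor secreted cytokine.

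The libraries held 30.1 to 42.8 M counts. Levels are counts per M (CPM) after scaling by trimmed mean of M-values (TMM) factors of 0.898 to 1.10. The ribosomal RNA-overlapping transcript *Gm42418* took 1.11% to 13.1% of the counts of a library, and its part in the results was tested only by leaving it out. *Trp53* was lower in every NF1-MET;sgP53 library, at 97.5 and 100.1 CPM against 182 and 193 CPM in vehicle and at 68.0 and 68.8 CPM against 126 and 128 CPM in capmatinib. *Met* was at 342 to 362 CPM under vehicle and 230.3 to 249 CPM under capmatinib. The Schwann cell genes *Sox10* and *Ngfr* had 0 to 7 counts in any library, although the summed level of the 12 Schwann cell and MPNST markers was 6055 to 7513 CPM. Of 9 leukocyte markers, *Adgre1*, *Cd3e* and *Itgam* were at 0 in all libraries and the sum was 6.13 to 12.9 CPM. The sum of the endothelial markers was at most 0.578 CPM and that of the epithelial markers at most 0.727 CPM. The summed level of 6 fibroblast and smooth muscle markers moved with the treatment. It went from 7613 to 7718 CPM in vehicle-treated NF1-MET cells to 38971 to 39377 CPM under capmatinib. For the NF1-MET;sgP53 line it went from 9493 to 9613 CPM to 39323 to 39366 CPM. Of these markers, 5 of the 5 tested were called higher with capmatinib in each line. Among all genes tested, 35.5% were called higher for the NF1-MET line and 34.2% for the other line. The untested marker, *Des*, had 0 to 4 counts in a library. In bulk RNA, fewer cells of a type and less RNA per cell cannot be told apart. The part of the shift in the fibroblast and smooth muscle markers in the values below was not tested.

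Start-site sequences of the 10 genes were read from RefSeq (GRCm38.p6) as windows of 250 bases before to 50 after a start, 13 windows in all. They were searched on both strands for the letters of 6 motifs, and no matches overlapped. The STAT motif was searched as TTCNNNGAA and the AP-1 motif as TGANTCA. For the C/EBP family of liver and inflammatory response factors the letters were TTGCNNAA. TEAD factors, the partners of YAP, were searched as GGAATG. For the large family of ETS factors the letters were CCGGAA. The TATA box near many start sites was searched as TATAAA. AP-1 letters, which Fos and Jun proteins bind, lay in 4 of the 13 windows, 1 each of *Osmr*, *Il6*, *Lif* and *Il11*, against 7.81% of all 32851 windows. STAT letters lay in 1 of the 13, that of *Socs3*, against 8.30% of all windows. The stretches that hold these 2 motifs are shown, up to the first exon that GENCODE gives for the gene within the window, because STAT3 is the factor of this pathway and AP-1 letters were in 4 of its genes. Capitals mark the AP-1 letters in *Osmr*, *Lif* and *Il11*, the AP-1 and then the C/EBP letters in *Il6*, and the STAT letters in *Socs3*. The *Osmr* window lies wholly in an annotated exon that begins further upstream, so only 30 bases of it are shown. The *Il11* window with the match lies inside the gene, whose annotated start is at 4782859, and the *Il11* window at that start held no match. The *Socs3* window also lies downstream of the annotated start of the gene, at 117970047.
Il6, chr5:30012864-30013113, plus strand: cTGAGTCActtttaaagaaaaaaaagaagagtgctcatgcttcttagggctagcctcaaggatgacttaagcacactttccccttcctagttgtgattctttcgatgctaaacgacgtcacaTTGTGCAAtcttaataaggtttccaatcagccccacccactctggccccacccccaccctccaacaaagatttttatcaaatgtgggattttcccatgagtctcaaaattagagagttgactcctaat
Lif, chr11:4257318-4257556, plus strand: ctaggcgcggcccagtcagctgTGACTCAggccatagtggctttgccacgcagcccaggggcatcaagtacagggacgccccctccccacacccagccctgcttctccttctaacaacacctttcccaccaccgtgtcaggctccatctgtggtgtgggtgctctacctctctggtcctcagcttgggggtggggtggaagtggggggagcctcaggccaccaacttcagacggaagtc
Il11, chr7:4778142-4778391, minus strand: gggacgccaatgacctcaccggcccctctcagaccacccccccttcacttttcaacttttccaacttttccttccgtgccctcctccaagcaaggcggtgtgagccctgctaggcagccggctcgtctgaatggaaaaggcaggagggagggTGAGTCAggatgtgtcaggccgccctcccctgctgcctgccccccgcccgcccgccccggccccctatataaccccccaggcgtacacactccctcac
Socs3, chr11:117969452-117969616, minus strand: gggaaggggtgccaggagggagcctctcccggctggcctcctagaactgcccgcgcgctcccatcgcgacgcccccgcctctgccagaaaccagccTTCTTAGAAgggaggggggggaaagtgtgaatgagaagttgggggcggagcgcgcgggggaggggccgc
Osmr, chr15:6874292-6874321, minus strand: tgccccgtagtTGATTCAtagctggggcgc
Counted from the RefSeq start, the first base of the AP-1 match was at -249 in *Il6*, -228 in *Lif*, -98 in *Il11* and 3 in *Osmr*. The C/EBP match of *Il6* began at -128 and the STAT match of *Socs3* at -154. *Il6st* had ETS letters at -218 and -147 (14.9% of all windows hold them), *Stat3* had TEAD letters at -241 and -8, and 1 of the *Il11ra1* windows had TEAD letters at -78 (14.7% of all windows). C/EBP letters were in 10.8% and TATA letters in 13.6% of all windows, and the TATA letters were in none of the 13. The windows of *Lifr* and *Il6ra* held none of the 6 motifs. Both windows of *Lifr* and both of *Il11ra1* lie downstream of the annotated gene starts, at 7090614 and 41699989. The sequence at those starts was not searched.

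*Osmr*, the oncostatin M receptor subunit, was low in vehicle-treated NF1-MET cells and higher in the other 3 groups (chromosome 15, 6813577 to 6874969, minus strand, mm10). It was at 4.05 and 4.04 CPM in vehicle-treated NF1-MET cells and at 78.9 and 76.9 CPM under capmatinib. The NF1-MET;sgP53 line had 24.8 and 25.4 CPM under vehicle and 128 and 127 CPM under capmatinib. No groups overlapped, and vehicle-treated NF1-MET cells stood lowest. Fitted folds of capmatinib over vehicle were 19.0 in NF1-MET (log2 4.25, SE 0.0628) and 5.08 in NF1-MET;sgP53 (log2 2.34, SE 0.0361). Between the lines, NF1-MET;sgP53 was 6.12-fold higher in vehicle and 1.64-fold higher in capmatinib. The fitted average over both lines was 2.99 for capmatinib over vehicle, and that over both treatments was 1.24 for NF1-MET;sgP53 over NF1-MET, both on the log2 scale. All of these values come from the libraries in which the gene was chosen. The lines overlapped over both treatments, since the treated NF1-MET libraries stood above the untreated NF1-MET;sgP53 libraries.

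**Figure D1:**
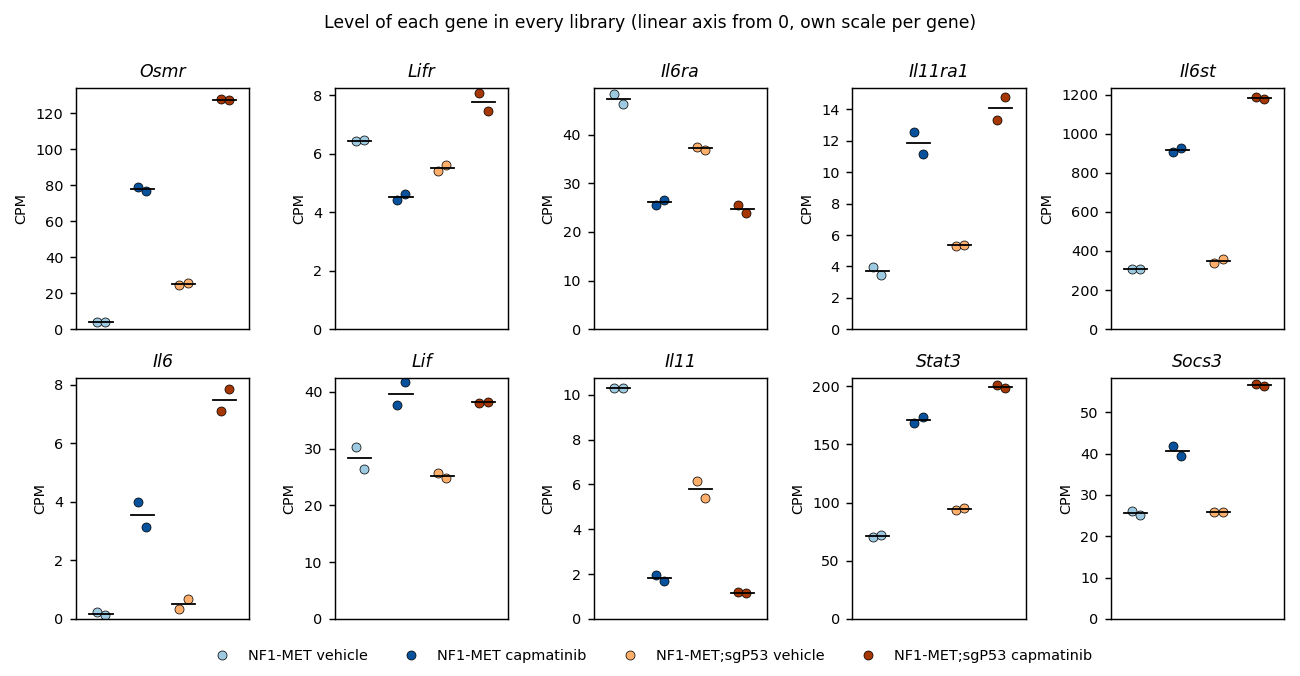
Level of each of the 10 genes in CPM on a linear axis from 0 with its own scale, with 1 point per library and a bar at the mean of the 2 replicates. *Osmr* goes from about 4.04 CPM in vehicle-treated NF1-MET cells to 128 CPM in NF1-MET;sgP53 with capmatinib, while *Il11* and *Il6ra* are lower with capmatinib in both lines.

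*Il6st*, the shared gp130 subunit, was the most abundant of the 10 transcripts per kb of exon in every group (chromosome 13, 112464070 to 112510086, plus strand). Its level was 306 CPM in both NF1-MET vehicle libraries, 907 and 926 CPM under capmatinib, 341 and 360.0 CPM in vehicle-treated NF1-MET;sgP53 cells, and 1189 and 1177 CPM under capmatinib. The 4 capmatinib libraries stood above the 4 vehicle libraries, and within each treatment NF1-MET;sgP53 stood above NF1-MET. With capmatinib *Il6st* rose 2.96-fold in NF1-MET (log2 1.57, SE 0.0219, adjusted p = 3.39e-33 from edgeR, by quasi-likelihood with Benjamini-Hochberg adjustment over all genes) and 3.38-fold in NF1-MET;sgP53 (log2 1.76, SE 0.0277, adjusted p = 6.61e-23 from edgeR). The difference between the lines was smaller, with log2 0.18 in vehicle (SE 0.0281, adjusted p = 8.22e-05 from edgeR) and 0.37 in capmatinib (SE 0.0203, adjusted p = 9.37e-10 from edgeR).

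*Lifr*, the LIF receptor subunit, moved in opposite directions in the 2 lines (chromosome 15, 7090614 to 7197489, plus strand). It was at 6.42 and 6.47 CPM in vehicle-treated NF1-MET cells and at 4.41 and 4.61 CPM under capmatinib. The NF1-MET;sgP53 line had 5.41 and 5.59 CPM under vehicle and 8.06 and 7.44 CPM under capmatinib. The 4 groups did not overlap, with the 2 capmatinib groups at either end. *Lifr* fell in NF1-MET by 0.53 (log2; SE 0.116; adjusted p = 0.000169 from edgeR) and rose in NF1-MET;sgP53 by 0.49 (SE 0.102, adjusted p = 0.000215 from edgeR). In capmatinib it was higher in NF1-MET;sgP53 by 0.78 (SE 0.111, adjusted p = 8.94e-05 from edgeR), while the difference in vehicle of -0.25 was not called (SE 0.104, adjusted p = 0.103 from edgeR). Its average response over both lines was 0.03 (SE 0.156, adjusted p = 0.883 from edgeR) and had the other sign with library totals in place of TMM factors (-0.14).

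The ligand-binding subunits of IL-6 and IL-11 moved in opposite directions with capmatinib. *Il6ra* (chromosome 3, 89864059 to 89913196, minus strand) was at 48.3 and 46.3 CPM in vehicle-treated NF1-MET cells, 25.5 and 26.6 CPM under capmatinib, 37.4 and 36.9 CPM in vehicle-treated NF1-MET;sgP53 cells, and 25.6 and 23.9 CPM under capmatinib. The vehicle groups stood apart from each other and above all capmatinib libraries, where the lines overlapped. *Il6ra* fell by 0.87 in NF1-MET (SE 0.0491, adjusted p = 1.10e-16 from edgeR) and by 0.59 in NF1-MET;sgP53 (SE 0.0524, adjusted p = 1.34e-09 from edgeR) on the log2 scale. In vehicle it was lower in the NF1-MET;sgP53 line, with a log2 difference of -0.37 (SE 0.0431, adjusted p = 1.86e-06 from edgeR), and in capmatinib the difference was -0.08 (SE 0.0568, adjusted p = 0.451 from edgeR; 0.04 with library totals).

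*Il11ra1* (chromosome 4, 41699989 to 41769474, plus strand) was at 3.97 and 3.46 CPM in vehicle-treated NF1-MET cells, 12.6 and 11.1 CPM under capmatinib, 5.30 and 5.38 CPM in vehicle-treated NF1-MET;sgP53 cells, and 13.3 and 14.8 CPM under capmatinib. All capmatinib libraries stood above all vehicle libraries. It rose by 1.65 in NF1-MET (SE 0.110, adjusted p = 9.61e-15 from edgeR) and by 1.40 in NF1-MET;sgP53 (SE 0.0924, adjusted p = 8.09e-12 from edgeR) on the log2 scale. NF1-MET;sgP53 was higher by 0.51 in vehicle (adjusted p = 0.00483 from edgeR; 0.0714 with DESeq2), and the difference of 0.26 in capmatinib lay at the threshold (adjusted p = 0.0504 from edgeR, and 0.0225 to 0.454 over the alternatives). The mouse genome holds near-identical copies of this gene, so reads may have been split or dropped; the copy *Il11ra2* was listed at 0 counts in all libraries. Exons of *Il11ra1* share 8 bases with *Ccl27a* and those of *Il6ra* 242 bases with the antisense gene *Gm42809*, both on the opposite strand, and the strand setting of the counting was not given in the sources used here.

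Levels of different genes were compared per kb of exon. *Osmr* was below *Lifr* in vehicle-treated NF1-MET cells, with a ratio of 0.561 and 0.555 in the 2 replicates, and above it in every other group. That ratio was 15.9 and 14.9 in NF1-MET with capmatinib, 4.07 and 4.04 in vehicle-treated NF1-MET;sgP53 cells, and 14.1 and 15.2 with capmatinib. *Il6st* exceeded *Osmr* 82.5- and 82.7-fold in vehicle-treated NF1-MET cells, 12.6- and 13.1-fold with capmatinib, 15.01- and 15.5-fold in vehicle-treated NF1-MET;sgP53 cells, and 10.2- and 10.1-fold with capmatinib. The ratio of *Il6ra* to *Il11ra1* went from 6.31 and 6.92 to 1.05 and 1.23 in NF1-MET and from 3.66 and 3.55 to 0.992 and 0.835 in NF1-MET;sgP53. Thus gp130 transcript was in excess of each partner receptor in all 8 libraries, and the order among the partners changed with both line and treatment.

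**Figure D2:**
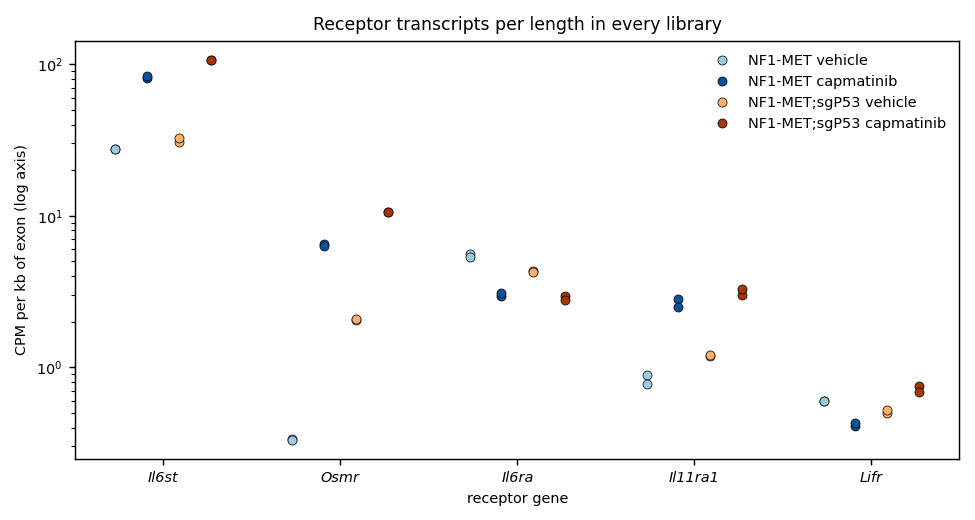
Receptor transcripts in CPM per kb of exon on a log axis, with 1 point per library and colours for the 4 groups. *Il6st* is the highest in all libraries (27.6 to 106.6 as group means), and *Osmr* passes from the lowest receptor in vehicle-treated NF1-MET cells (0.334) to the next after *Il6st* with capmatinib.

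Over all 10 genes, the order per kb in vehicle-treated NF1-MET cells was *Il6st* (27.6 CPM per kb), *Socs3* (8.86), *Stat3* (7.49), *Lif* (6.51), *Il6ra* (5.48), *Il11* (4.95), *Il11ra1* (0.831), *Lifr* (0.598), *Osmr* (0.334) and *Il6* (0.0712). Neighbours in this order did not overlap between replicates. With capmatinib *Osmr* moved from place 9 to 5 in NF1-MET and from place 7 to 4 in NF1-MET;sgP53, while *Il11* moved from place 6 to 9 and from 6 to 10. The only overlapping neighbours were *Il11ra1*, *Il6* and *Il6ra* in NF1-MET;sgP53 with capmatinib (3.15, 3.08 and 2.86 CPM per kb).

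Among the ligands, *Il6* was scarce under vehicle and rose with capmatinib (chromosome 5, 30013114 to 30019981, plus strand). It had 8 and 5 counts in vehicle-treated NF1-MET cells, 110 and 120 under capmatinib, 12 and 29 in vehicle-treated NF1-MET;sgP53 cells, and 250 and 285 with capmatinib. In CPM these were 0.220 and 0.125, 3.98 and 3.12, 0.349 and 0.679, and 7.09 and 7.85. All capmatinib libraries were above all vehicle libraries, and within each treatment NF1-MET;sgP53 was above NF1-MET. The rise was 4.31 in NF1-MET (SE 0.309, adjusted p = 5.60e-14 from edgeR) and 3.81 in NF1-MET;sgP53 (SE 0.197, adjusted p = 1.09e-13 from edgeR) on the log2 scale. In capmatinib NF1-MET;sgP53 was higher by 1.10 (SE 0.130, adjusted p = 1.17e-05 from edgeR). In vehicle the difference of 1.59 passed the threshold (SE 0.509, adjusted p = 0.0285 from edgeR) on these few counts, and it was lost with DESeq2 (adjusted p = 0.192), without NF1-MET vehicle replicate 2 (1.26, adjusted p = 0.142 from edgeR) and without NF1-MET;sgP53 vehicle replicate 2 (1.02, adjusted p = 0.274 from edgeR).

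*Lif* rose by less (chromosome 11, 4257557 to 4272514, plus strand). Its level was 30.3 and 26.3 CPM in vehicle-treated NF1-MET cells, 37.7 and 41.6 CPM under capmatinib, 25.6 and 24.7 CPM in vehicle-treated NF1-MET;sgP53 cells, and 38.0 and 38.2 CPM under capmatinib. Capmatinib libraries were above vehicle libraries in each line, and the lines overlapped in capmatinib. The rise was 0.48 in NF1-MET (SE 0.0581, adjusted p = 9.78e-09 from edgeR) and 0.60 in NF1-MET;sgP53 (SE 0.0503, adjusted p = 4.98e-10 from edgeR). In vehicle *Lif* was lower in the NF1-MET;sgP53 line, with a log2 difference of -0.19 (SE 0.0628, adjusted p = 0.0352 from edgeR). This call was lost with DESeq2 (adjusted p = 0.169), with library totals (adjusted p = 0.340 from edgeR) and without NF1-MET vehicle replicate 1 (-0.07, adjusted p = 0.575 from edgeR), NF1-MET;sgP53 vehicle replicate 1 (adjusted p = 0.0824 from edgeR) or its replicate 2 (adjusted p = 0.229 from edgeR). The difference in capmatinib was -0.06 (SE 0.0496, adjusted p = 0.497 from edgeR) and 0.06 with library totals.

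*Il11*, the ligand of the *Il11ra1* product, fell (chromosome 7, 4772373 to 4782859, minus strand). It was at 10.3 CPM in both NF1-MET vehicle libraries, 1.95 and 1.69 CPM under capmatinib, 6.17 and 5.41 CPM in vehicle-treated NF1-MET;sgP53 cells, and 1.19 and 1.13 CPM under capmatinib, where it had 42 and 41 counts. The 4 groups did not overlap. The fall was 5.77-fold in NF1-MET (log2 -2.53, SE 0.130, adjusted p = 1.10e-17 from edgeR) and 4.96-fold in NF1-MET;sgP53 (log2 -2.31, SE 0.167, adjusted p = 3.74e-11 from edgeR). NF1-MET;sgP53 was lower in vehicle by a log2 difference of -0.86 (SE 0.0951, adjusted p = 8.73e-07 from edgeR). In capmatinib the difference was -0.64 (SE 0.233, adjusted p = 0.0905 from edgeR), which passed the threshold without the low-count filter (0.0464) and with all 8 libraries in 1 model (0.0419). With capmatinib the ligand *Il11* was thus lower and its receptor *Il11ra1* higher, whereas the ligand *Il6* was higher and its receptor *Il6ra* lower, in both lines.

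*Osm*, which encodes oncostatin M, the ligand of OSMR, had 0 counts in all 8 libraries. A count of 0 allows up to 3 counts, or 0.0702 to 0.108 CPM in a library, for counting error only. The *Osmr* transcript was therefore measured in cells in which the transcript of this ligand was not detectable at this depth.

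*Stat3*, like *Il6st*, was higher with capmatinib in both lines and higher in NF1-MET;sgP53 in both treatments (chromosome 11, 100885098 to 100939540, minus strand). It was at 70.7 and 71.9 CPM in vehicle-treated NF1-MET cells, 168 and 173 CPM under capmatinib, 93.2 and 95.3 CPM in vehicle-treated NF1-MET;sgP53 cells, and 201 and 198 CPM under capmatinib. No groups overlapped. With capmatinib it rose by 1.24 in NF1-MET (SE 0.0300, adjusted p = 1.33e-26 from edgeR) and by 1.08 in NF1-MET;sgP53 (SE 0.0331, adjusted p = 9.68e-18 from edgeR) on the log2 scale. NF1-MET;sgP53 was higher by 0.38 in vehicle (SE 0.0319, adjusted p = 1.56e-08 from edgeR) and by 0.22 in capmatinib (SE 0.0303, adjusted p = 5.02e-05 from edgeR). Its exons share 72 bases, or 0.756% of their length, with those of *Stat5a* on the opposite strand.

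*Socs3*, the feedback inhibitor, was higher with capmatinib in both lines and differed between the lines in capmatinib (chromosome 11, 117966079 to 117970047, minus strand). It was at 26.1 and 25.1 CPM in vehicle-treated NF1-MET cells, 41.9 and 39.5 CPM under capmatinib, 25.9 and 25.8 CPM in vehicle-treated NF1-MET;sgP53 cells, and 56.8 and 56.4 CPM under capmatinib. The vehicle groups overlapped and the capmatinib groups did not. *Socs3* rose by 0.65 in NF1-MET (SE 0.0516, adjusted p = 7.53e-13 from edgeR) and by 1.13 in NF1-MET;sgP53 (SE 0.0438, adjusted p = 6.61e-16 from edgeR). In capmatinib it was higher in NF1-MET;sgP53 by 0.48 (SE 0.0420, adjusted p = 2.70e-07 from edgeR). In vehicle the log2 difference was -0.0041 (SE 0.0542, adjusted p = 0.972 from edgeR) and changed sign with the scaling (0.05 with library totals).

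**Figure D3:**
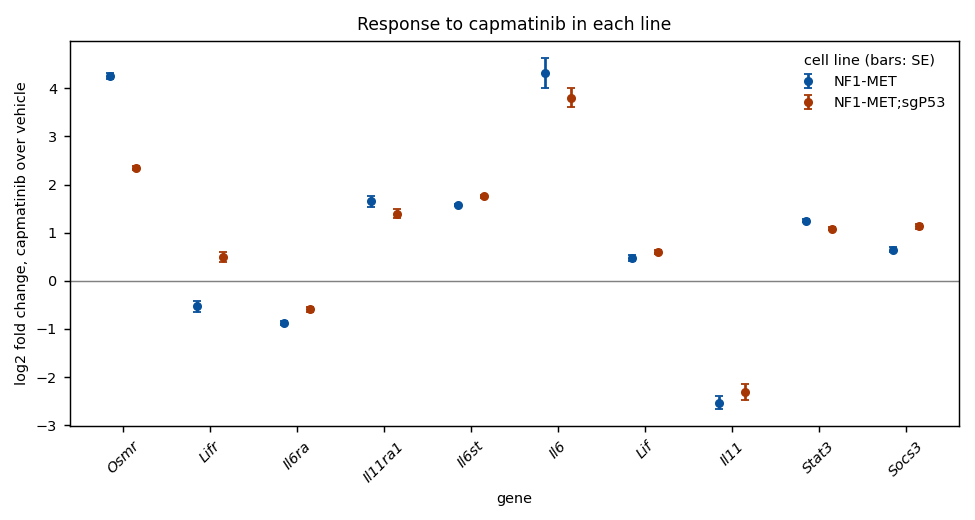
Log2 fold change of capmatinib over vehicle for the 10 genes in each line, with SE as bars. *Lifr* lies at -0.53 (NF1-MET) and 0.49 (NF1-MET;sgP53), and *Osmr* at 4.25 and 2.34.

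Counts of the 9 genes other than *Osmr* give the group as a whole. With capmatinib 6 were higher and 3 lower in NF1-MET, where 35.5% of all genes tested were called higher and 34.7% lower, and 7 were higher and 2 lower in NF1-MET;sgP53, where the shares were 34.2% and 33.4%. The 9 genes had a median log2 fold change of 0.65 and 1.08 in the 2 lines, against medians of 0.0020 and 0.0049 over all genes. Between the lines in vehicle, 4 were higher in NF1-MET;sgP53, 3 lower and 2 not called, with 10.9% of all genes higher and 12.3% lower. Their median was -0.0041, against 0.0024 over all genes. In capmatinib 5 were higher, 0 lower and 4 not called by edgeR, with 5.94% and 6.34% of all genes. At an unadjusted p under 0.05, 1 was lower (*Il11*), and DESeq2 also called 0 lower. Their median was 0.26, against -0.0010 over all genes. The comparisons share libraries in pairs and are not independent of each other.

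The same 9 genes were tested in the averages. Over both lines 6 rose with capmatinib, 2 fell (*Il11* and *Il6ra*) and *Lifr* was not called, where 38.0% of all genes were higher and 35.8% lower. The largest rise among the 9 was that of *Il6*, by a log2 fold change of 3.97 (SE 0.192, adjusted p = 3.55e-10 from edgeR). Over both treatments 5 were higher in NF1-MET;sgP53 (*Il6st*, *Il6*, *Stat3*, *Socs3* and *Il11ra1*), 2 lower (*Il11* and *Il6ra*) and 2 not called (*Lifr* and *Lif*), where 8.18% of all genes were higher and 7.71% lower. The call of *Il6ra* was lost with library totals in place of TMM factors (adjusted p = 0.0974 from edgeR). *Lifr* was higher by 0.33 with library totals and by 0.25 without the low-count filter (adjusted p = 0.00883 and 0.0332 from edgeR), and by 0.25 to 0.30 with any 1 library left out, in fits with a term for each group (adjusted p = 0.0115 to 0.0361 from edgeR). In those fits *Lif* was called lower without NF1-MET vehicle replicate 2 (-0.17) or NF1-MET capmatinib replicate 1 (-0.15). *Il6* was higher by 1.15 (SE 0.164, adjusted p = 0.000356 from edgeR) and *Il11* lower by a log2 difference of -0.79 (SE 0.0920, adjusted p = 6.89e-05 from edgeR).

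The interaction, the response in NF1-MET;sgP53 minus that in NF1-MET on the log2 scale, was the contrast behind the choice of the set. It was -1.92 for *Osmr*, 1.00 for *Lifr*, 0.47 for *Socs3*, 0.27 for *Il6ra*, 0.17 for *Il6st*, 0.20 for *Il11*, 0.11 for *Lif*, -0.18 for *Stat3*, -0.27 for *Il11ra1* and -0.52 for *Il6*. Over all genes, 9.71% passed the threshold in this contrast in either direction, and nothing is read from that share for these genes. *Osmr* had the lowest value, which is part of the choice, since the set was chosen on it. *Lifr* had the highest value. The SE of the 10 values ran from 0.0359 (*Il6st*) to 0.507 (*Il6*).

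Of 16 other ligands and receptors of the family, 6 could be tested, and the other 10, *Cntfr* and *Il31ra* among them, had at most 1 count in any library. With capmatinib 2 were higher, 1 lower and 3 not called in each line, with medians of -0.38 and -0.67, where 35.5% of all genes were higher and 34.7% lower in NF1-MET, with 34.2% and 33.4% for NF1-MET;sgP53. Between the lines, the shares over all genes for this and the next lists were 10.9% higher and 12.3% lower in vehicle and 5.94% and 6.34% in capmatinib. *Clcf1*, which encodes a cytokine of the family, went from 70.1 and 69.8 CPM to 31.5 and 30.6 CPM in NF1-MET and from 43.8 and 55.6 CPM to 26.7 and 26.5 CPM in NF1-MET;sgP53, without overlap between treatments. Its log2 fold changes were -1.19 and -0.91 (adjusted p = 4.36e-22 and 2.21e-10 from edgeR). Between the lines, *Clcf1* was the 1 gene called lower in vehicle, with a log2 difference of -0.50, and it was 1 of 2 called lower in capmatinib, with -0.22. None of the 6 was called higher by edgeR in NF1-MET;sgP53 in either treatment, nor were any at an unadjusted p under 0.05 (0 in each).

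Of 10 genes for JAK kinases and the other STATs, 9 were tested. With capmatinib 8 rose and 1 fell in NF1-MET, with a median of 0.61, and 7 rose and 2 were not called in NF1-MET;sgP53, with a median of 0.63. The shares of all genes called higher and lower were 35.5% and 34.7% in NF1-MET and 34.2% and 33.4% in the other line. *Stat2*, which acts downstream of type I interferon receptors, was at 7.05 and 7.37 CPM in vehicle-treated NF1-MET cells and 17.3 CPM in both libraries with capmatinib. In NF1-MET;sgP53 it went from 6.92 and 9.06 CPM to 23.8 and 22.5 CPM. Its rise was 1.24 and 1.52 on the log2 scale (adjusted p = 5.90e-15 and 1.47e-12 from edgeR). *Stat5a* rose by 0.90 in NF1-MET (adjusted p = 3.85e-10 from edgeR), and the kinase gene *Tyk2* fell there by 0.20 (adjusted p = 0.00308 from edgeR). Between the lines, 3 were higher and 1 lower in vehicle. In capmatinib 2 were higher, among them *Stat2* by 0.42, and 0 lower by edgeR, also at an unadjusted p under 0.05 (0).

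Of 21 negative regulators and adaptors, 20 were tested. With capmatinib 8 rose, 10 fell and 2 were not called in NF1-MET, and 7 rose, 5 fell and 8 were not called in NF1-MET;sgP53, with medians of -0.12 and -0.07. These counts lay beside 35.5% higher and 34.7% lower of all genes in NF1-MET, with 34.2% and 33.4% for NF1-MET;sgP53. *Socs2*, an inhibitor of growth hormone signalling, rose by 1.05 and 1.19 and the adaptor gene *Gab1* by 1.14 and 1.19 on the log2 scale, the NF1-MET value first. *Socs6* fell by 0.84 and 0.74, *Socs5* by 0.67 in NF1-MET, and *Pias2*, which encodes a SUMO ligase, by 0.54 in NF1-MET;sgP53. The rise of *Socs3* was thus shared by *Socs2* but not by every SOCS gene. Between the lines 1 was higher (*Ptpn11*, by 0.15), 6 lower and 13 not called in vehicle. In capmatinib 0 were higher by edgeR (3 at an unadjusted p under 0.05) and 1 was lower (*Erbin*, log2 difference -0.10).

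Of 32 textbook target genes of IL-6 and STAT3, 23 were tested. With capmatinib 14 rose, 8 fell and 1 was not called in NF1-MET, and 13 rose, 9 fell and 1 was not called in NF1-MET;sgP53, with medians of 0.44 and 0.48. Over all genes 35.5% were higher and 34.7% lower in NF1-MET, with 34.2% and 33.4% for NF1-MET;sgP53. *Fos*, an AP-1 subunit, went from 2.87 and 2.16 CPM to 41.7 and 42.2 CPM in NF1-MET and from 3.05 and 2.996 CPM to 34.0 and 37.2 CPM in NF1-MET;sgP53, log2 fold changes of 4.05 and 3.56. *Cebpd*, a C/EBP transcription factor gene, went from 20.1 and 18.7 CPM to 75.5 and 75.8 CPM and from 22.3 and 21.9 CPM to 88.7 and 87.8 CPM, log2 fold changes of 1.95 and 2.00. In the other direction, the cyclin D1 gene *Ccnd1* had log2 fold changes of -1.43 and -1.44, and *Timp1*, which encodes a metalloproteinase inhibitor, of -1.51 and -1.47. The 4 genes had adjusted p of at most 9.72e-20 from edgeR in each line. Several genes of the list are also targets of other pathways. Between the lines 4 were higher, 7 lower and 12 not called in each treatment. *Bcl2l1*, a survival gene of the BCL2 family, was lower in NF1-MET;sgP53 by log2 differences of -0.38 in vehicle and -0.42 in capmatinib, and *Nnmt*, a methyltransferase gene, was higher by 0.44 in vehicle (adjusted p = 3.50e-08, 8.98e-07 and 0.000153 from edgeR).

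Of 22 genes listed for NF-kappaB and for IL-1 or tumor necrosis factor (TNF) inputs to *Il6*, 18 were tested. The list mixes activators with inhibitors and also holds *Hgf*, so its counts give no direction of input to *Il6*. With capmatinib 14 rose, 2 fell and 2 were not called in NF1-MET, and 13 rose, 3 fell and 2 were not called in NF1-MET;sgP53, with medians of 0.37 and 0.32. The all-gene shares were again 35.5% higher and 34.7% lower in NF1-MET, with 34.2% and 33.4% for NF1-MET;sgP53. *Zfp36*, which encodes a protein that destabilises cytokine messenger RNAs, rose from 12.5 and 11.03 CPM to 63.0 and 70.9 CPM in NF1-MET and from 10.5 and 10.9 CPM to 49.8 and 50.7 CPM in NF1-MET;sgP53. These are log2 fold changes of 2.51 and 2.23 (adjusted p = 1.90e-26 and 2.65e-19 from edgeR). *Tnfaip3*, the gene of the NF-kappaB inhibitor A20, rose by 1.94 and 1.73. *Hgf*, the gene of the MET ligand, fell by 1.01 and 0.35. Between the lines 4 were higher, 2 lower and 12 not called in vehicle. There *Hgf* was lower by a log2 difference of -0.69 (SE 0.0452, adjusted p = 4.48e-10 from edgeR), at 32.9 and 33.5 CPM in NF1-MET;sgP53 against 54.7 and 51.1 CPM. *Il1rl1*, which encodes the IL-33 receptor, was higher by 0.60 (adjusted p = 3.08e-12 from edgeR) and *Tnfrsf1b*, a TNF receptor gene, by 0.40. *Tlr2* and *Il33*, both with mean levels under 10 CPM, were higher by 1.07 and 0.72, and *Relb* was lower by a log2 difference of -0.23 (adjusted p = 0.00872, 0.0304 and 0.0257 from edgeR). In capmatinib 1 was higher, 1 lower and 16 not called.

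**Figure D4:**
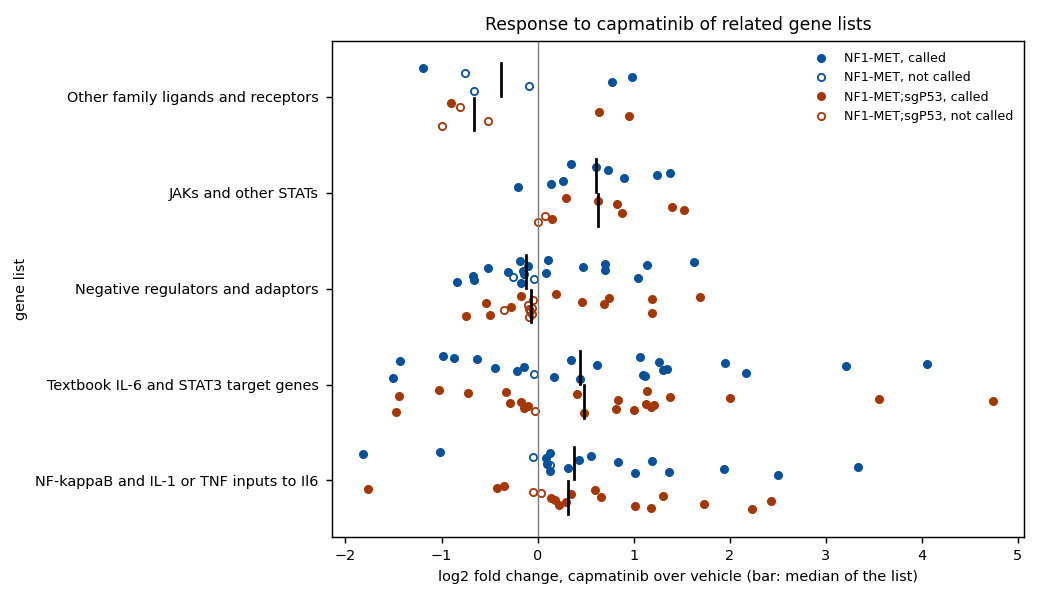
Log2 fold change of capmatinib over vehicle for each tested gene of the 5 lists (filled, past the threshold of 0.05; open, not called), with the median as a bar. The JAK and STAT list lies mostly right of 0 in both lines, and the target gene list spreads to both sides, with *Fos* at 4.05 and *Timp1* at -1.51 in NF1-MET.

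*Osmr* and *Lifr* lie next to each other among tested genes on chromosome 15, on opposite strands, with 216 kb between them. The 5 tested genes on either side were *Ptger4*, *Dab2*, *Fyb*, *Gm7666* and *Rictor*, and *Gdnf*, *Wdr70*, *Gm27529*, *Nup155* and *Cplane1*. With capmatinib in NF1-MET these 10 had log2 fold changes of -1.37 (*Fyb*) to 1.51 (*Gdnf*), with 4 called higher, 4 lower and 2 not called, where 35.5% of all genes were higher and 34.7% lower. *Osmr* had 4.25 and *Lifr* -0.53. *Gdnf*, the gene of a neurotrophic factor, also rose in NF1-MET;sgP53, by 1.29. In vehicle, where *Osmr* was 2.61 higher in NF1-MET;sgP53 on the log2 scale, the differences of the 10 ran from -0.92 to 0.20, and *Fyb* was the 1 gene called, lower, where 10.9% of all genes were higher and 12.3% lower. *Rictor*, the nearest tested protein-coding gene on the other side of *Osmr*, had a difference of -0.08 there (SE 0.0320).

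**Figure D5:**
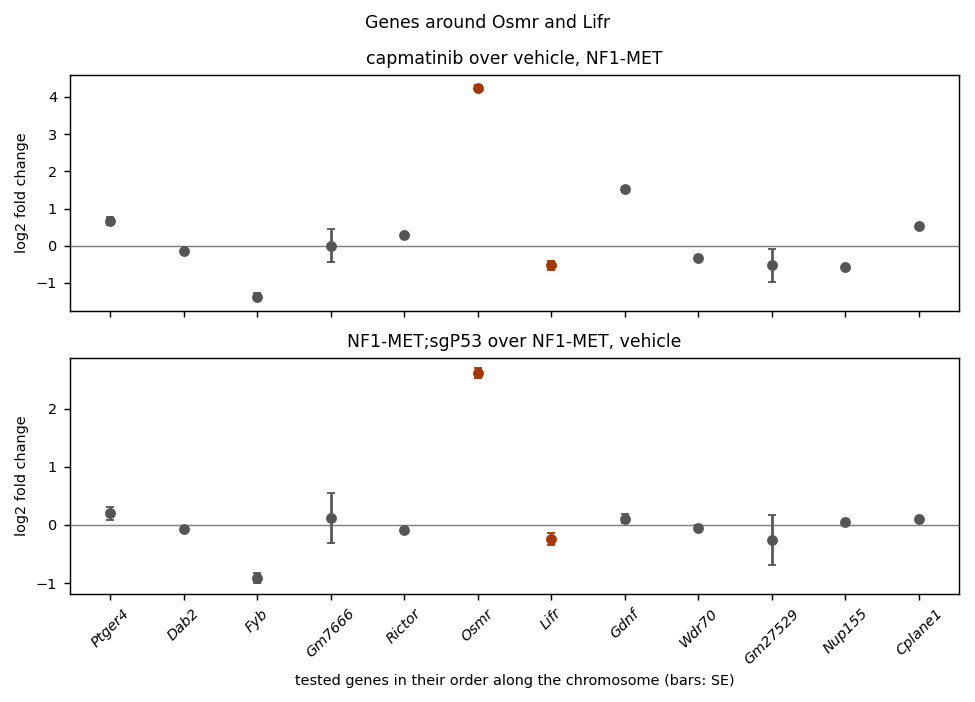
Log2 fold change with SE for *Osmr*, *Lifr* and the 5 tested genes on either side, in their order along the chromosome, for capmatinib over vehicle in NF1-MET (top) and NF1-MET;sgP53 over NF1-MET in vehicle (bottom). *Osmr* stands at 4.25 and 2.61, and the other genes of the bottom panel lie between -0.92 and 0.20.

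Among 8658 genes averaging 10 CPM or more, the 5 with the profile most like that of *Osmr* over the 8 libraries were *Tagln*, *Runx1t1*, *Otulinl*, *Lgals9* and *Fam13c*. Likeness was the distance between log2 CPM profiles centred on their means, which was 1.02, 1.12, 1.13, 1.44 and 1.46 for these genes, against 5.23 for a flat profile. Pearson's r over the 8 libraries was 0.983, 0.986, 0.980, 0.997 and 0.962, and is a description of 4 groups of 2. *Tagln*, the gene of the smooth muscle protein transgelin and 1 of the 6 fibroblast and smooth muscle markers, was at 34.2 and 36.3 CPM in vehicle-treated NF1-MET cells, 785 and 782 CPM under capmatinib, 124 and 129.9 CPM in vehicle-treated NF1-MET;sgP53 cells, and 949 and 949.7 CPM under capmatinib. *Lgals9*, which encodes a galectin, was at 3.25 and 3.23 CPM, 28.7 and 27.3 CPM, 10.7 and 10.5 CPM, and 41.2 and 43.5 CPM in the same groups. *Tagln* and *Lgals9* were picked for this likeness, so the order of their groups is part of the choice. The same 5 genes were nearest with library totals in place of TMM factors.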

How the data were processed

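RNA-seq was measured in 8 libraries of 4 groups. Libraries were made from poly(A) RNA and read as pairs. According to the methods and the submitters' processing notes, base calls were converted with bcl2fastq 1.9.0, reads were trimmed with Trim Galore 0.4.2, checked with FastQC 0.11.7 and mapped to mm10 with STAR 2.5.2b. The deposited values are the raw gene counts the authors took from STAR, without normalization. The annotation release and strand setting of the counting were not given in the sources used here. Positions and exon lengths came from GENCODE M21, which held 99.56% of the identifiers.

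Genes that reached 10 counts in 2 or more libraries, and were above 0 in 2 or more libraries of a comparison, were tested with edgeR 4.0.16 (limma 3.58.1, R 4.3.3) by its original (not bias-adjusted) quasi-likelihood F-test. Each comparison had its own TMM factors, p-values were adjusted by Benjamini-Hochberg over all genes tested, and the threshold was 0.05. The SE is the absolute log2 fold change over the square root of F. CPM values used TMM factors over all 8 libraries, and profiles used log2 of CPM plus 0.5. The 4 simple comparisons, both averages with the other factor as a covariate, and the interaction were fitted on the whole table. The replicates were duplicate treatments of 1 line, so p-values measure the spread between such duplicates. Counts differed between replicates by 1.56 to 1.83 times sampling noise (median squared difference), and none were merged. The totals of 30.1 to 42.8 M counts set the precision, and reads carried no molecular identifiers.

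The members and gene lists were chosen with earlier results of these data known. Beside the 10 members, the text names *Trp53* and *Met* as checks, for each list and comparison at most the 2 largest rises and 2 largest falls (called genes, groups not overlapping, higher group averaging 10 CPM or more), the 5 genes nearest in profile to *Osmr*, the 5 tested neighbours on each side of *Osmr* and *Lifr*, and markers. Genes named for their low counts or shared exons, or to complete a count (*Tlr2*, *Il33*, *Cntfr*, *Il31ra*, *Il11ra2*, *Ccl27a*, *Gm42809*, *Gm42418*) were chosen after their values were seen. Alternatives were DESeq2 size factors in edgeR, the DESeq2 1.42.0 Wald test, library totals, the bias-adjusted quasi-likelihood test, filtering not at all or more strictly, a block for replicate number, omission of *Gm42418*, 1 model of all 8 libraries, and each library left out. Procedures were tested on simulated data. Protein sequences were not used here. Some genes of the lists and markers are counted in the list totals but not reported by name.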

Additional observations from a re-analysis of the deposited data

Results flagged for a closer look

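*Lifr* was the gene of the set for which every capmatinib library of one line lay below, and every capmatinib library of the other line above, the vehicle libraries of its own line. They lay below in NF1-MET and above in NF1-MET;sgP53, and the fitted log2 difference between the capmatinib responses, NF1-MET;sgP53 minus NF1-MET, was 1.002. The difference was not tested, since the set had been chosen on this contrast.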

How the results depend on the processing

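The 10 genes gave 1003 values over 18 alternative settings, and 988 kept the direction of the reported value. Those that changed sign were small and not called. They were *Socs3* between the lines in vehicle (0.05341 with library totals, 0.0152 with all 8 libraries in 1 model, -0.01374 to 0.04246 with each library left out), *Lif* in capmatinib (0.05788 with library totals, -0.1275 to 0.01722 with each left out), *Il6ra* in capmatinib (0.03823 with library totals) and *Lifr* over both lines (-0.1426 with library totals, -0.00489 with DESeq2, -0.03595 to 0.02156 with each left out). Library totals in place of TMM factors moved the median of all genes for capmatinib by -0.186 (NF1-MET), -0.123 (NF1-MET;sgP53) and -0.164 (both lines), and by 0.115 between the lines in capmatinib.

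Between the lines in vehicle, 3355 genes were called, 2023 with library totals and 1933 with DESeq2, which called 2 of the 9 members higher in place of 4. In capmatinib 1778 genes were called, 666 with library totals, 870 with DESeq2 and 1067 to 1299 with each library left out, fewest without NF1-MET capmatinib replicate 2. The number of members lower there, 0, was 1 (*Il11*) without the low-count filter and with all 8 libraries in 1 model. Over both treatments the members lower went from 2 to 1 with library totals, where *Il6ra* was lost (adjusted p = 0.0974 from edgeR). *Lifr*, not called over both treatments (0.25), was called with library totals (0.33) and without the filter (0.25). It was also called with any 1 library left out (0.25 to 0.30), in fits that changed to a term for each group. No such fit of all 8 libraries was run for this average, so these changes cannot be told apart. In the same fits *Lif* was called over both treatments without NF1-MET vehicle replicate 2 (-0.17) or NF1-MET capmatinib replicate 1 (-0.15). For the interaction, 1407 genes passed, 315 with library totals and 894 with DESeq2. Called genes divided into 50.5% higher for capmatinib in the NF1-MET line, 50.6% for NF1-MET;sgP53, 51.5% over both lines, 47.1% between the lines in vehicle, 48.4% in capmatinib, 51.5% over both treatments and 39.7% for the interaction, and with library totals into 35.5%, 39.8%, 37.9%, 63.3%, 80.6%, 77.9% and 61%. The interaction was 58.8% without *Gm42418*, 53.6% without the filter and 57.3% without NF1-MET;sgP53 capmatinib replicate 2 (38.6% to 42% without any other library). Vehicle was 57.3% with all 8 libraries in 1 model and 54.2% to 56.7% with each library left out. Where a library left 1 sample in a group, the fit pooled the spread over all groups. The cause of these changes was not tested.

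Replicate numbers were shared between groups, but deviations of same-numbered libraries correlated from -0.133 to 0.387 over 8659 genes, so the numbers were not taken as pairs. With the replicate number as a block, 3994 genes were called between the lines in vehicle, 1777 in capmatinib and 1524 for the interaction. The block changed 1 call of the members, *Il11ra1* in capmatinib (adjusted p = 0.0457 from edgeR). The crossed block, chosen after seeing the data, called 972 genes higher and 1079 lower in capmatinib. *Il6* had 5 to 29 counts with vehicle.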
